A study of Arabidopsis thaliana with 8 samples.

Results

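DNA-replicating nuclei from Arabidopsis seeds with globular embryos are described here, chosen from single-nucleus RNA-seq by the reads of a few S-phase genes. A retained nucleus, one with at least 100000 counts and 1000 detected features, was a member if it had a count for at least 3 of 7 rule genes and none for TPX2, which encodes a spindle protein of dividing cells. The rule genes are TSO2, CYCA3;2, RPA70B, RPA70D, BRCA2, AT5G43530 and AT2G41450. Of 534 retained nuclei, 58 were members (10.9%, 95% exact binomial interval 8.35 to 13.8%), and they are called replicating nuclei below. The other 476 retained nuclei served for comparison. Nuclei of the seed coat, which is maternal tissue, were among those sorted. Of the 58 replicating nuclei, 19 lay in seed-coat-like clusters, so some of them may not be of the embryo. These clusters held 109 retained nuclei, more than the paper removed as seed coat, so they include nuclei that the paper kept as embryonic.

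The study sorted GFP-positive nuclei from developing Col-0 seeds at the globular stage, from 1 transgenic line (pWOX2::NLS-GFP) in which the WOX2 promoter drives a nuclear marker, a histone H2B-GFP fusion, and a tdTomato membrane marker in the embryo. The sorting gates were centred on the DNA-content peaks of unreplicated and fully replicated nuclei, and the DNA content of single nuclei was not used here. Seeds of several siliques were pooled, and each of the 744 nuclei, 93 on each of 8 plates, gave 1 Smart-seq2 library. No plate was treated, so both classes of nuclei carry the same transgene and growth conditions, and the plate is the only replicate. Whether plates came from separate plants is not stated in the labels, so that p-values measure the spread between plates, which may be technical.

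Before a cell divides, its DNA is copied once, in S phase. The MCM helicase is loaded at origins and opens the double helix, DNA polymerases alpha, delta and epsilon copy the strands with the sliding clamp PCNA, and replication protein A (RPA) covers the single strands. Ribonucleotide reductase supplies deoxynucleotides, new histones are placed on the daughter strands by chromatin assembly factor 1 (CAF-1), and maintenance methyltransferases copy DNA methylation. In plants, as in animals, many of these genes carry binding sites of E2F transcription factors in their promoters, whereas B-type cyclins and genes of the spindle and phragmoplast are transcribed later, around mitosis.

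Since the rule genes chose the nuclei, their values are a description without a test. TSO2, a small subunit of ribonucleotide reductase, had reads in 63.8% of replicating nuclei and in 8.61% of the others. For CYCA3;2, an A-type cyclin of S phase, the shares were 50.0% and 3.99%. RPA70B and RPA70D, large subunits of RPA, were detected in 72.4% and 74.1% of replicating nuclei, against 6.72% and 5.67% of the others. BRCA2, which acts in homologous recombination, had reads in 75.9% and 9.87%, but it has a close paralogue (BRCA2B), so that reads may have been split between the copies. AT5G43530, annotated as a helicase with a RING domain, stood at 60.3% and 3.78%, and AT2G41450, an N-acetyltransferase, at 24.1% and 1.05%. All replicating nuclei lacked TPX2 reads, which 86 of the other nuclei (18.1%) had.

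**Figure D1:**
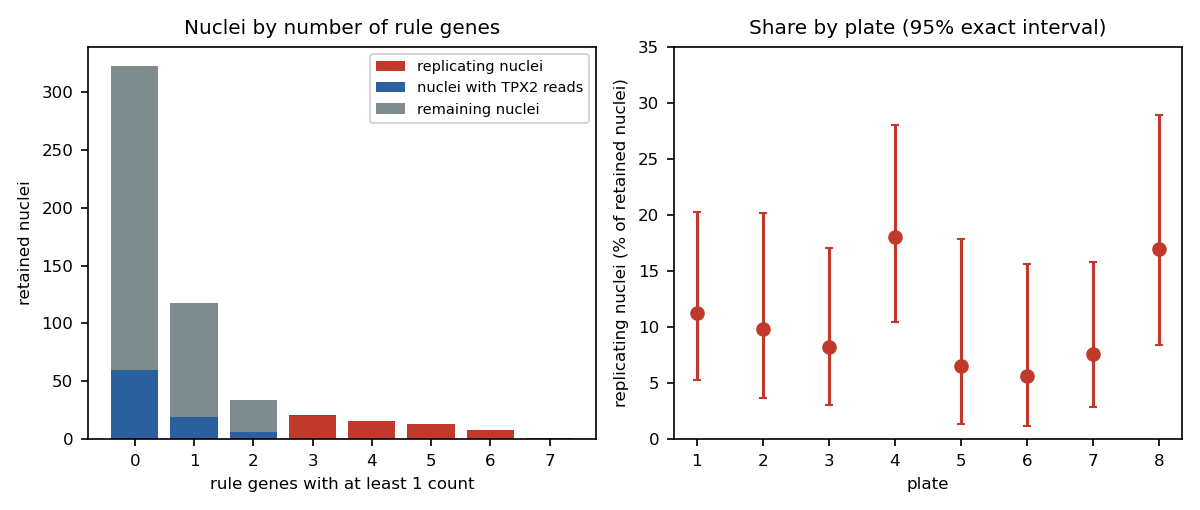
Left, retained nuclei (vertical axis) by the number of rule genes with at least 1 count, coloured as replicating nuclei, nuclei with TPX2 reads and remaining nuclei. Right, replicating nuclei as a percentage of the retained nuclei of each plate with 95% exact binomial intervals, which run from 5.66% on plate 6 to 18.1% on plate 4.

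At the limit of the rule, 20 members had reads of exactly 3 rule genes (29 to 1351 counts in sum, median 401.5), and 28 nuclei without TPX2 reads had exactly 2 (3 to 4381 counts, median 173.5). These neighbours were close in depth, with medians of 597429 and 585937.5 counts per nucleus. The other 38 members had 4 to 7 rule genes. Only 1 nucleus with 3 or more rule genes was left out for its TPX2 reads, while 60 of the 86 nuclei with TPX2 reads had no rule gene.

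Replicating nuclei were present on every plate. They made up 11.2%, 9.84%, 8.22%, 18.1%, 6.52%, 5.66%, 7.59% and 16.9% of the retained nuclei of plates 1 to 8, or 9, 6, 6, 15, 3, 3, 6 and 10 nuclei. The intervals of all plates overlapped. Depth enters a rule that asks for reads. The median replicating nucleus had 635266.5 counts and 2979.5 features, and the median of the others 435892 counts and 2439 features. Median depth was higher in replicating nuclei on 7 of 8 plates and median features on 8 of 8. Shares of nuclei with reads are given below after each nucleus was thinned to 100000 counts, and the rule was also applied to thinned counts, which kept 47 of the 58 members and added none. The sums of the replicating nuclei of a plate held 1779525 to 7867402 counts of nuclear genes, against 16383960 to 40646725 for the others. Organelle transcripts took a median of 6.27% of the counts in replicating nuclei and 7.14% in the others, no nucleus name was shared between plates, and doublets were not called.

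To see which other transcripts distinguish replicating nuclei, counts were summed within each plate and class and compared with edgeR, with plate as a block and the rule genes left out. The other genes were measured in the same nuclei whose reads chose the members. Of 9541 genes tested, 23 were higher in replicating nuclei (0.241%) and 277 were lower (2.90%) at an adjusted p under 0.05. The fitted log2 difference of the median gene was -1.56, against 0.45 when equal numbers of nuclei were summed in both classes, so some values below are also given relative to this median. The median moved with the number of nuclei summed, so a value relative to it holds for this edgeR fit only. Such a value is not to be read as a larger difference between nuclei. Of the 23 higher genes, all were also called when mean log2 levels per nucleus were compared with limma (303 genes higher, 3.18%, and 129 lower, 1.35%, with a median of 0.21), and all had positive differences when equal numbers of nuclei were summed, where 11 of them passed among 14 genes higher (0.147%) and 24 lower (0.252%). Over all genes 65.8% had positive differences with limma and 14.9% with edgeR, so the 2 tools lean in opposite directions. Median features were also higher in replicating nuclei on 8 of 8 plates, and whether this raised the limma values was not tested. Without each plate in turn, 10 of the 23 remained called. The count was 12 without plate 1, 14 without plate 2 and 13 without plate 8. BARD1, HMGB6 and AT5G63550 kept their edgeR, limma or DESeq2 calls in each of the 21 alternatives run, and each of the other 20 genes lost its call or, for AT3G06355, also its direction in at least 1. Fewer of the 277 lower genes held: 116 were also called with limma, 23 with equal numbers of nuclei and 54 with no plate block. Without each plate in turn, 93 of the 277 remained called.

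**Figure D2:**
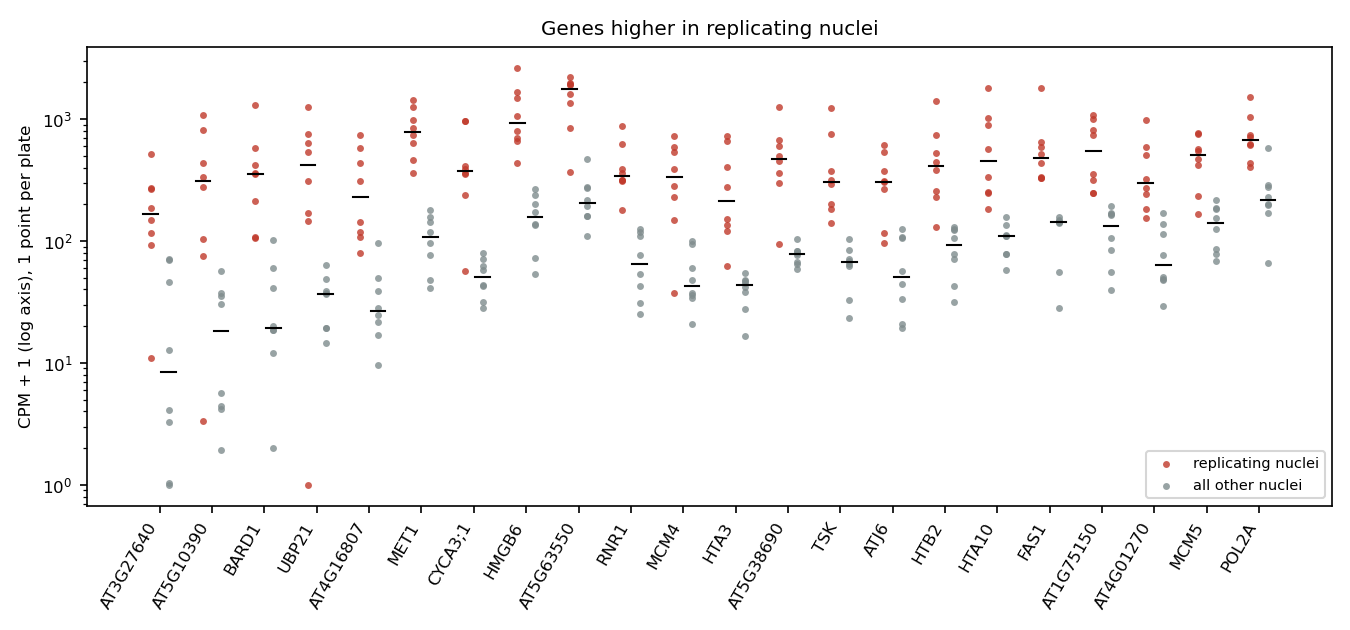
Expression in replicating nuclei (left of each pair) and all other nuclei, in CPM + 1 on a log axis, for 22 of the 23 genes called higher, with 1 point per plate and a black line at the median. For MET1 the 8 plates of replicating nuclei lie between 358 and 1437 CPM, above the 40.5 to 178 CPM of the other nuclei, whereas the plates of MCM5 and POL2A overlap.

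MCM4 and MCM5, subunits of the helicase that opens DNA at origins, passed the test. MCM4 had 36.4 to 727 CPM (counts relative to 1000000 counts of the plate's sum after TMM normalization, median 335.0) over the 8 plates in replicating nuclei, against 19.7 to 98.7 CPM (median 41.7) in all other nuclei. The ranges overlapped, although MCM4 was higher on 7 of 8 plates, with a log2 difference of 2.63 ± 0.70 (SE, edgeR adjusted p = 0.0294), which is 4.18 above the median gene. MCM5 ranged over 165 to 768 CPM (median 509) in replicating nuclei and 67.2 to 216 CPM (median 139) in the others. It was higher on 8 of 8 plates by 1.81 ± 0.51 in log2 (edgeR adjusted p = 0.0418). After thinning, 74.1% of replicating nuclei and 21.9% of the others had MCM5 reads. With edgeR, leaving out plate 1, 2, 3, 5 or 8 ended both MCM calls, as did plate 7 for MCM4 and plates 4 and 6 for MCM5, with adjusted p up to 0.106 and 0.102. MCM5 depended on the definition of the members: its log2 difference was 0.57 in edgeR when at least 4 rule genes were required (adjusted p = 0.705) and 1.26 with the rule on thinned counts (adjusted p = 0.289), beside 1.80 and 2.12 for MCM4 (adjusted p = 0.303 and 0.154). Both MCM calls were also lost with equal numbers of nuclei or without seed-coat-like nuclei.

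Of the 26 genes for origin licensing and the helicase, 15 passed the filter on low counts, 2 were higher and none was lower, with a median log2 difference of 1.59 against -1.56 for all genes. With limma 11 of the 15 were higher. In edgeR 0 of the 15 were with equal numbers of nuclei, with TPX2 or seed-coat-like nuclei left out, or under either stricter member rule. In these edgeR settings the list medians were 0.61 to 2.62, beside -3.01 to 0.45 for all genes. MCM10, which helps to start the fork, did not pass the edgeR test (log2 difference 3.95 ± 1.35, adjusted p = 0.097), although its plates did not overlap: 64.0 to 184 CPM in replicating nuclei against 1.26 to 47.8 CPM in the others. Summed over the 26 genes, origin and helicase transcripts came to 1974 to 3816 CPM in replicating nuclei and 605 to 1476 CPM in the others, without overlap.

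At the fork itself, POL2A (TILTED1), the catalytic subunit of DNA polymerase epsilon, was the only one of 23 tested genes that passed in edgeR. Its level was 405 to 1520 CPM (median 669) in replicating nuclei, against 65.5 to 572 CPM (median 214) in the others. The ranges overlapped through plate 1, where the other nuclei had 572 CPM, and the difference was 1.62 ± 0.44 in log2 (edgeR adjusted p = 0.0329, up to 0.0996 and no longer called without plate 1, 2, 3, 5, 6 or 8). Its edgeR call was also lost with equal numbers of nuclei (adjusted p = 0.688), at least 4 rule genes (0.173) or no plate block (0.0592). ICU2, the catalytic subunit of polymerase alpha, had reads in 81.0% of replicating nuclei and 31.1% of the others after thinning, with a log2 difference of 1.53 ± 0.53 (edgeR adjusted p = 0.103). PCNA1 and PCNA2, the sliding clamp, were detected in 43.1% and 50.0% of replicating nuclei and in 9.24% and 7.35% of the others. The fork list had a median of 1.36, and limma called 15 of its 23 genes higher. RFC1, the large subunit of the clamp loader, had reads in 56.9% and 59.2% of nuclei and a log2 difference of -0.45 ± 0.48.

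Among genes for deoxynucleotide supply, RNR1, the large subunit of ribonucleotide reductase and so the partner of the rule gene TSO2, had 178 to 878 CPM (median 337.5) in replicating nuclei and 24.2 to 125 CPM (median 63.9) in the others. The plates did not overlap, which held for 0.136% of all genes in this direction. RNR1 was higher by 2.64 ± 0.55 in log2 (edgeR adjusted p = 0.0059), and the largest adjusted p without a plate was 0.0328. RNR2A, another small subunit, had reads in 5.17% of replicating nuclei and 9.66% of the others and did not pass (edgeR adjusted p = 0.0874). The median of the 5 tested genes, -1.08, was close to that of all genes.

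Genes for the copying of chromatin were called too. MET1, the methyltransferase that maintains CG methylation after replication, stood at 358 to 1437 CPM (median 788) in replicating nuclei and 40.5 to 178 CPM (median 106) in the others. There was no overlap, and the difference was 2.99 ± 0.44 in log2, 4.55 above the median gene (edgeR adjusted p = 0.000106, higher on 8 of 8 plates, and 0.129 with equal numbers of nuclei). FAS1, the large subunit of CAF-1, ranged over 327 to 1808 CPM (median 478) in replicating nuclei, against 27.5 to 157 CPM (median 142) in the others. FAS1 was higher by 2.32 ± 0.49 in log2 (edgeR adjusted p = 0.0063), without overlap, and stayed called when any single plate was left out. TSK (TONSOKU), a reader of newly made chromatin that protects forks, had 139 to 1232 CPM (median 302) in replicating nuclei and 22.2 to 104 CPM (median 65.9) in the others. It was higher by 2.55 ± 0.59 (edgeR adjusted p = 0.0116, and 0.07 at most with 1 plate out, where the call was lost without plate 1 or plate 8).

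In all, 3 of 13 tested genes of this list were higher and none was lower. CMT3, a chromomethylase, was higher on 8 of 8 plates but missed the threshold (log2 difference 1.78 ± 0.56, edgeR adjusted p = 0.0714), as did ATXR6, which monomethylates H3.1 at lysine 27 (3.16 ± 0.92, adjusted p = 0.0503). VIM1, which binds hemimethylated DNA and has close paralogues that may share its reads, was detected in 74.1% of replicating nuclei and 45.8% of the others (log2 difference 0.24 ± 0.58, edgeR adjusted p = 0.836).

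For replication-coupled histone genes the number called changed with the lineages included. So did the number over all genes: 23 were higher, 18 without seed-coat-like nuclei and 5 without seed-coat-like and suspensor-like nuclei. The reason was not tested. Of 29 genes for H3.1, H4, H2A and H2B, 26 were tested, 24 had a positive log2 difference, and 4 passed in edgeR. The median of the list stayed above that of all genes in each setting given here. It was 1.29 beside -1.56 with all nuclei. Without seed-coat-like nuclei 1 was higher and 1 lower, with a median of 1.00 beside -3.01. Without seed-coat-like and suspensor-like nuclei 0 were higher and 1 lower, with a median of 0.07 beside -3.11 for all genes, and against other embryo-proper-like nuclei 0 were higher, with a median of -0.19 beside -2.35. HTA10, an H2A gene, had 182 to 1793 CPM (median 450.2) in replicating nuclei and 56.9 to 155 CPM (median 108) in the others, without overlap (log2 difference 2.33 ± 0.52, edgeR adjusted p = 0.0101). HTB2, an H2B gene, ranged over 129 to 1403 CPM (median 409) in replicating nuclei and 30.3 to 129 CPM (median 91.4) in the others, and was higher on 8 of 8 plates by 2.38 ± 0.54 (edgeR adjusted p = 0.0103). HTA3, which encodes the H2A.X variant phosphorylated at DNA breaks, had 61.6 to 725 CPM (median 213) in replicating nuclei and 15.5 to 53.7 CPM (median 42.9) in the others (2.61 ± 0.75, edgeR adjusted p = 0.0485).

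The H3.1 gene AT5G10390 differed most in this list, with 2.35 to 1080 CPM (median 307) in replicating nuclei and 0.919 to 55.7 CPM (median 17.1) in the others. It was higher on 7 of 8 plates by 4.71 ± 1.17 in log2 (edgeR adjusted p = 0.0192). In edgeR the call of this gene was lost without plate 1, 2, 5 or 8 (adjusted p up to 0.0975), that of HTA3 without plate 1, 2, 3, 6, 7 or 8 (up to 0.159), that of HTA10 without plate 6 (0.0593) and that of HTB2 without plate 1 (0.0586). Histone genes of 1 kind are nearly identical in sequence, so the split of reads between copies is uncertain, and H2B reads may come in part from the H2B-GFP marker that all nuclei carry. The sum over the 29 genes does not depend on that split within a kind. It was 3645 to 7707 CPM in replicating nuclei and 1368 to 2210 in the others, without overlap. Of 5 tested genes for H3.3 and linker histones, which are made outside S phase as well, none passed in either direction (median -0.18 in edgeR and 0.75 in limma, beside -1.56 and 0.21 for all genes). Whether these 5 genes differ from the core histones was not tested.

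**Figure D3:**
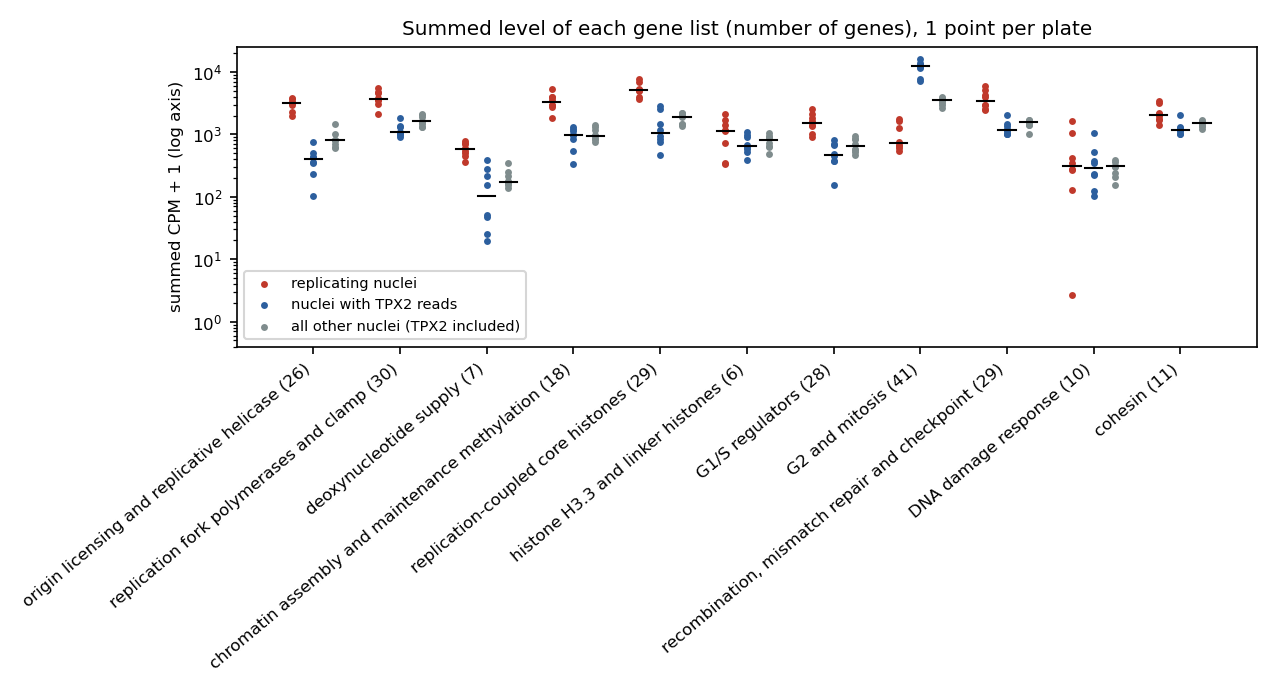
Summed level of each gene list in CPM + 1 (log axis), with 1 point per plate and a black line at the median, for replicating nuclei, nuclei with TPX2 reads and all other nuclei. The plates of replicating nuclei lie above those of the other nuclei for origin licensing, deoxynucleotide supply, chromatin assembly, core histones, and recombination and repair. For G2 and mitosis they lie below them (530 to 1742 against 2656 to 3932 CPM).

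Of the regulators of the G1/S transition, CYCA3;1, a close relative of the rule gene CYCA3;2, was the only one of 20 tested genes that passed in edgeR. With limma 4 of the 20 were higher. CYCA3;1 had 55.8 to 970 CPM (median 373) in replicating nuclei and 27.4 to 79.4 CPM (median 49.6) in the others. The ranges met on 1 low plate, and CYCA3;1 was higher on 8 of 8 plates by 2.89 ± 0.58 in log2 (edgeR adjusted p = 0.0037, at most 0.0207 without a plate, and 0.0672 with equal numbers of nuclei). RBR1, the retinoblastoma protein that holds E2F in check, was higher with limma but not in edgeR (1.15 ± 1.06, adjusted p = 0.57). E2FA had reads in 31.0% of replicating nuclei and 14.5% of the others, E2FB in 8.62% and 11.1%, and neither passed with either tool. CYCD3;1, a G1 cyclin, was detected in 13.8% and 9.24%.

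Among 19 tested genes for recombination, mismatch repair and checkpoints, BARD1, the partner of BRCA1, was higher. Its level was 104 to 1298 CPM (median 356) in replicating nuclei and 1.01 to 101 CPM (median 18.4) in the others, without overlap. The log2 difference was 3.97 ± 0.78, 5.53 above the median gene (edgeR adjusted p = 0.0031, at most 0.0279 without a plate), and 67.2% of replicating nuclei and 6.09% of the others had reads after thinning. BRCA1 itself was too rare for the test but was detected in 36.2% and 4.41% of nuclei. MSH6, which recognises mismatches, had reads in 81.0% and 23.3% (1.87 ± 0.56, edgeR adjusted p = 0.0593). With limma, 11 of the 19 genes were higher. ATM and ATR, the checkpoint kinases, had reads in 22.4% and 36.2% of replicating nuclei, against 29.4% and 19.1% of the others. Of the genes of the DNA damage response none of 5 tested passed with edgeR or limma. SMR5 and SMR7, cell cycle inhibitors of the damage response, had reads in 0% and 3.45% of replicating nuclei and 0.21% of the others. Reads of SMR5 in 0 of 58 nuclei allow a share of nuclei with such reads of up to 5.17%, which is no limit on nuclei that express it. For cohesin, which ties sister chromatids, 0 of 9 genes passed in edgeR and 2 were higher with limma, SMC1 and SMC3.

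Several called genes lay outside these lists. HMGB6, a small HMG-box chromatin protein, had 436 to 2629 CPM (median 926) in replicating nuclei and 52.2 to 265 CPM (median 155) in the others, without overlap. It was higher by 2.85 ± 0.40 in log2, 4.41 above the median gene (edgeR adjusted p = 5.76e-05), and was detected in 87.9% of replicating nuclei and 20.6% of the others. AT5G63550, annotated with a DEK domain found in chromatin proteins, had 370 to 2191 CPM (median 1751) in replicating nuclei and 108 to 471 CPM (median 206) in the others. AT5G63550 was higher by 2.69 ± 0.34 (edgeR adjusted p = 3.1e-05), with reads in 91.4% and 39.9% of nuclei. Both were among the 10 genes that were called without each plate in turn.

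UBP21, a ubiquitin-specific protease, had no reads on 1 plate and up to 1258 CPM on another (median 422) in replicating nuclei, against 13.5 to 63.1 CPM (median 35.9) in the others (3.41 ± 0.91, edgeR adjusted p = 0.0301). AT3G27640, a WD40-repeat protein, had 9.998 to 516 CPM (median 166) in replicating nuclei and 0 to 69.9 CPM (median 7.45) in the others, the largest fitted difference of the 23 genes (4.78 ± 1.39, edgeR adjusted p = 0.0499). Both ranges overlapped. In edgeR UBP21 was no longer called without plate 1, 2, 3, 6 or 8 (adjusted p up to 0.141), and AT3G27640 without plate 1, 4, 5, 6, 7 or 8 (up to 0.169). AT4G16807 (annotated as a crotonase-like protease), AT5G38690 (a zinc-finger protein) and ATJ6 (a J-domain chaperone) were higher on 8 of 8 plates by 3.1 ± 0.75, 2.56 ± 0.55 and 2.46 ± 0.63. The edgeR call of AT4G16807 was lost without plate 2 or 3 (adjusted p up to 0.0755) and that of ATJ6 without plate 1, 2, 7 or 8 (up to 0.0783).

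Outside the rule for naming genes, and so named after their values were seen, 3 further genes were higher. AT1G75150, annotated as related to DNA ligase, had 245 to 1087 CPM (median 542) in replicating nuclei and 38.6 to 192 CPM (median 133) in the others, without overlap (2.28 ± 0.50, edgeR adjusted p = 0.0083). AT4G01270, a RING-type protein, was higher by 2.26 ± 0.62 (edgeR adjusted p = 0.0357, up to 0.134 and no longer called without plate 1, 2, 4, 7 or 8). AT3G06355, an abundant non-coding RNA, took 10.998% of the counts of replicating nuclei and 9.21% of those of the others. It stayed in the library sizes, at 46471 to 282900 CPM over plates in replicating nuclei and 21670 to 203690 CPM in the others. On plate 7 it was lower in replicating nuclei, at 144930 against 170300 CPM. Its difference, 0.53 ± 0.07, was not called with DESeq2 (adjusted p = 0.318) or without the plate block (edgeR adjusted p = 0.918). It turned to -0.16 when seed-coat-like and suspensor-like nuclei were left out on both sides.

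Promoters of the higher genes were read from the TAIR10.1 genome, as the 250 bases before each RefSeq gene start. An E2F site (TTTCCCGC, TTTGGCGC, TTTGCCGC or TTTCGCGC, on either strand) lay in 7 of the 23 promoters (30.4%), in 2 of 277 promoters of lower genes (0.722%), in 1.72% of the genes tested and in 1.90% of all 37897 promoters. The other 16 of the 23, among them MET1, BARD1, HMGB6 and RNR1, had none of these letters in the window. Of the 303 genes called higher with limma, 33 held a site (10.9%). A site was held by 11 of the 26 origin and helicase genes (42.3%), 7 of 30 fork genes (23.3%), 6 of 29 genes for recombination and repair (20.7%), 2 of 18 for chromatin assembly (11.1%), 3 of 29 for core histones (10.3%), 2 of 28 G1/S regulators (7.14%), 0 of 7 genes for deoxynucleotide supply and 0 of 41 for G2 and mitosis. Of the 7 rule genes 4 held one. The 4 promoters below, those of called replication and chromatin genes with a site close to the gene start, are given 5′ to 3′ along the gene's strand, with each site in capitals. FAS1 is on the minus strand at chr1:24324092-24324341 and holds 2 sites, AT1G75150 on the minus strand at chr1:28208591-28208840 with 1 site on each strand, MCM5 on the minus strand at chr2:3527501-3527750 and MCM4 on the minus strand at chr2:7130730-7130979.
FAS1: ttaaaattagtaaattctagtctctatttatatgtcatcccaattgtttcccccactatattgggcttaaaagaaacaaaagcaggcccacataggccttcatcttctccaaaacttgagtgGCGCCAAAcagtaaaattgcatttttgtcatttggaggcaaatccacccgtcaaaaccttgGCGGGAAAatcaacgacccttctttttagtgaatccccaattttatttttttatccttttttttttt
AT1G75150: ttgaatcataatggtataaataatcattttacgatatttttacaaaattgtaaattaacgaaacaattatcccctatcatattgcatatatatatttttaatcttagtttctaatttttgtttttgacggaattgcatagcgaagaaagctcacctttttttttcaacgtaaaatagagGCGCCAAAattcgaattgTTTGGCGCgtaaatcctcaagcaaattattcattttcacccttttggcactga
MCM5: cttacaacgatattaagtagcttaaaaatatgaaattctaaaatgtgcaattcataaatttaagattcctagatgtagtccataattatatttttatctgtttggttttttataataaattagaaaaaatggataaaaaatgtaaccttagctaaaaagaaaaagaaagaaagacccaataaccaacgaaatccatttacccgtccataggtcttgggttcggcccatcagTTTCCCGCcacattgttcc
MCM4: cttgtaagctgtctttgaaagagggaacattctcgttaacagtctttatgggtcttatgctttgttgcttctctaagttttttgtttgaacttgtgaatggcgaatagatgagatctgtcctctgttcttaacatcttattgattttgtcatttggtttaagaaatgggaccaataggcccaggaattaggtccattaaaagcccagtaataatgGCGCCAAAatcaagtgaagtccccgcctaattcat

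The core of the MSA element of G2/M promoters (CAACGG, either strand) was found in 13 of the 41 promoters of the G2 and mitosis list (31.7%) and in 2 of the 23 promoters of higher genes (8.70%), beside 5.55% of all promoters. Of the 277 promoters of lower genes 33 held it (11.9%), as did 6.27% of the genes tested. Histone promoters of the replication-coupled list held it in 41.4%. A match is a stretch of letters and was not tested as a site.

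Genes of G2 and mitosis were lower. Of 28 tested genes of this list, 15 were lower and none was higher, with a median log2 difference of -6.66. Since the rule asks for no TPX2 reads, itself a mitotic transcript, lower values of other mitotic genes follow in part from the rule. When the 86 nuclei with TPX2 reads were left out of the others, 5 of the 28 genes were lower, and the median was -5.07 beside -1.53 for all genes. With equal numbers of nuclei 1 of the 28 genes was lower, without the plate block 5 and with limma 10. POK2, a kinesin that positions the phragmoplast, had 0 to 28.7 CPM (median 2.21) in replicating nuclei and 130 to 441 CPM (median 250.4) in the others, without overlap (-6.84 ± 1.27, edgeR adjusted p = 0.0017). Plates did not overlap in this direction for 1.53% of all genes. The mitotic HMG-box proteins 3xHMG-box1 and 3xHMG-box2 had at most 52.1 and 247 CPM in replicating nuclei, and at least 161 and 382 CPM in the others. TOPII, topoisomerase II, had a log2 difference of -3.53 ± 0.82 (edgeR adjusted p = 0.0129), with reads in 25.9% of replicating nuclei and 41.4% of the others. The B-type cyclins CYCB1;3, CYCB2;2 and CYCB2;4 had at most 0.538, 0.350 and 0.673 CPM in replicating nuclei and were lower, as were CYCB1;2 (at most 48.4 CPM) and CYCB3;1 (at most 4.30 CPM). CYCB1;1 and CYCB2;3 did not pass (edgeR adjusted p = 0.388 and 0.158). CYCB1;1 had 96.9, 33.9 and 153 CPM in replicating nuclei of plates 3, 4 and 5, above the 58.5, 11.1 and 47.0 CPM of the other nuclei there, and at most 2.80 CPM in replicating nuclei of the remaining plates.

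CENH3, the centromeric histone H3, went the other way in this list, with reads in 36.2% of replicating nuclei and 10.9% of the others (1.85 ± 1.14, edgeR adjusted p = 0.394; higher with limma, adjusted p = 0.0082).

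Replicating nuclei were then set beside the nuclei with TPX2 reads in numbers of genes per nucleus. After thinning, a replicating nucleus had reads of 11 to 42 of 74 replication genes that the rule did not use (origin, fork and chromatin lists; median 25), a nucleus with TPX2 reads of 1 to 28 (median 7), and a nucleus of neither kind of 0 to 38 (median 8). For the 41 genes of G2 and mitosis the medians were 3, 15 and 2. The median number of the 29 histone genes was 11.5, 4 and 3. The number of replication genes also went with the number of rule genes: nuclei without TPX2 reads had medians of 7, 9, 20, 21.5, 24, 27, 32 and 36 replication genes at 0 to 7 rule genes, so that those just below the limit were near those just above it.

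**Figure D4:**
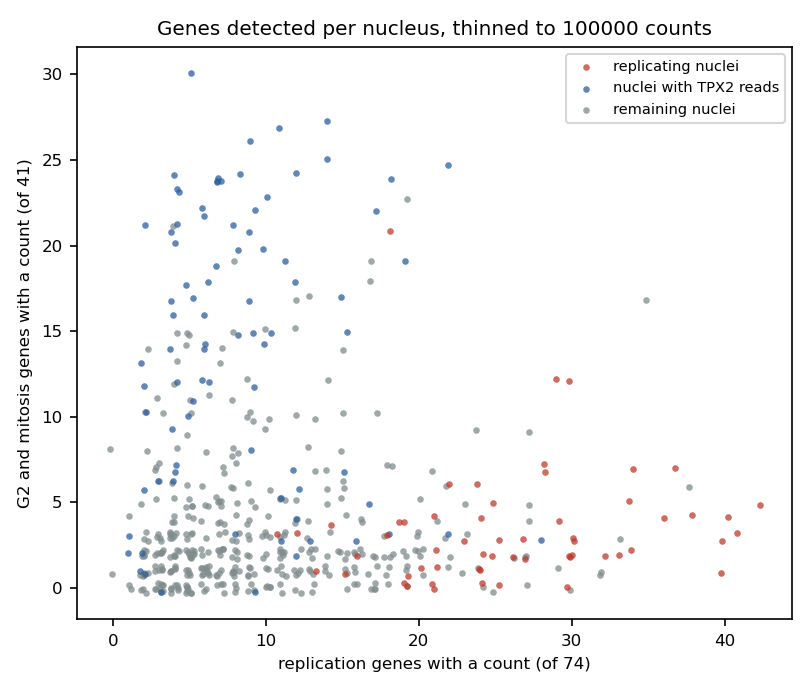
Number of G2 and mitosis genes (of 41) against replication genes (of 74) with a count in each nucleus after thinning to 100000 counts, for replicating nuclei, nuclei with TPX2 reads and remaining nuclei, with small random offsets. Replicating nuclei extend to 42 replication genes with a median of 3 mitosis genes, while nuclei with TPX2 reads extend to 30 mitosis genes with a median of 7 replication genes.

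The 15 lower genes of the largest fitted differences are given in 2 groups, by whether more suspensor-like nuclei or more nuclei with TPX2 reads had reads of them. This grouping was made after their values were seen, and most of them are in no list. The suspensor is the stalk that anchors the embryo. BGLU17, a beta-glucosidase and suspensor marker, had no reads in replicating nuclei and 41.6 to 242 CPM (median 149.9) in the others. Against a floor of 3 counts over all replicating nuclei, BGLU17 was 1559-fold lower. That floor covers counting error only, since reads are not independent molecules, so the value is no lower limit on the difference. ENODL2, another suspensor marker, had 0 to 79.8 CPM (median 0) in replicating nuclei and 90.2 to 341 CPM (median 197) in the others. Its fitted log2 difference of -11.67 ± 1.77 (edgeR adjusted p = 0.00014) goes with plates at 0 counts. Pooled over all nuclei, the others had 11.2 times the level of replicating nuclei. CRK11, a receptor kinase, SCPL19, a serine carboxypeptidase-like protein, AT3G05150, a sugar transporter-like protein, AT1G55650, with an HMG box, and AT3G46110 likewise had a median of 0 in replicating nuclei. All of these were detected in 31.9 to 72.6% of suspensor-like nuclei.

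The remaining 8 of the 15, AT5G66230, AT1G49870, AT1G78865, AT4G01730, AT2G23530, AT2G22610 (a kinesin), AT5G37247 and CYCB2;4, had reads in 34.9 to 52.3% of nuclei with TPX2 reads and in at most 7.08% of suspensor-like nuclei. AT5G37247 had no reads in replicating nuclei. It was 561-fold lower against the same floor, which again is no lower limit on the difference.

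Of the listed suspensor markers, 5 of 8 tested were lower in replicating nuclei, BGLU17, CEP1, ENODL2, MLP28 and SDT, and none was higher. WOX8, a homeobox gene of the suspensor, did not pass (-4.67 ± 1.54, edgeR adjusted p = 0.0871), although its plates did not overlap (0 to 22.9 CPM against 56.9 to 176 CPM). Such a lack of overlap held for 1.53% of all genes in this direction. The summed suspensor markers came to 20.14 to 536 CPM in replicating nuclei and 656 to 1615 in the others. Markers of the other lineages did not pass with edgeR in either direction: none of 11 for protoderm, 10 for inner and vascular cells, 6 for the quiescent center and columella, and 8 for the seed coat. None of the 7 shoot meristem and cotyledon boundary markers or the 8 endosperm markers passed the filter on low counts. No cluster was named after either, so these lineages could not be assessed. The paper reports DNA replication terms among the leading genes of its shoot meristem initials. With limma, PHB, MP and ZLL of the inner and vascular list were higher. DML3, a DNA demethylase named after its values were seen, had 0 to 149 CPM (median 46.5) in replicating nuclei and 504 to 835 CPM (median 659) in the others (-4.77 ± 0.89, edgeR adjusted p = 0.002), and had reads in 92.0% of suspensor-like nuclei.

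To ask which lineages replicating nuclei belong to, nuclei were clustered without the genes of the lists above, and 9 of 11 clusters were named from listed markers. Both seed-coat-like clusters also had raised protoderm markers, with mean log2 differences of 0.61 and 1.00 beside 2.20 and 1.87 for the seed coat markers. The smaller of them, with 28 nuclei and 5 replicating nuclei, also had raised endosperm markers (0.66). The clustering still followed the cell cycle in part. The embryo-proper-like cluster that held most replicating nuclei (22 of its 66) was led by HMGB6 and MET1. It was named inner and vascular at a mean log2 difference of 0.52, close to the limit of 0.5. Another inner and vascular cluster held 9 replicating nuclei. Of 2 others without replicating nuclei, that with 56 nuclei was named protoderm and that with 37 inner and vascular. Both were led by mitotic genes such as TPX2 and TOPII. No embryo-proper-like replicating nucleus thus lay in a protoderm cluster. The only such cluster had TPX2 among its leading genes, and the rule asks for no TPX2 reads. Its lack of replicating nuclei therefore cannot tell whether any are of the protoderm. Over all classes, the median protoderm marker had reads in 37.9% of replicating nuclei and 30.0% of the others after thinning. Of the 58 replicating nuclei, 31 were embryo-proper-like (53.4%, against 35.5% of the others), 19 were seed-coat-like (32.8% against 18.9%), 4 quiescent-center-and-columella-like (6.90% against 5.25%), 3 suspensor-like (5.17% against 23.1%) and 1 lay in an unnamed cluster (1.72% against 17.2%). Replicating nuclei thus made up 15.5% of embryo-proper-like nuclei (95% exact interval 10.8 to 21.3%), 17.4% of seed-coat-like (10.8 to 25.9%) and 2.65% of suspensor-like nuclei (0.551 to 7.56%).

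Over plates, the suspensor-like share was lower in replicating nuclei, with a difference of -17.01 ± 12.9 percentage points (SD, lower on 7 of 8 plates, exact sign-flip permutation p = 0.0156, adjusted p = 0.026 over 5 classes). With 7 plates the same exact test gave an adjusted p of 0.0521 without plate 1, 2, 3, 4, 6, 7 or 8, so the call was kept only without plate 5. The difference was -19.9 to -15.1 points in 4 other clusterings, with adjusted p from 0.026 to 0.0781 by the same exact test. The embryo-proper-like share was higher by 20.8 ± 14.1 points (7 of 8 plates, adjusted p = 0.026), a call that was lost without plate 1, 2, 3, 4, 6 or 8. The class itself did not hold: at resolutions of 0.5 and 2 and with 30 components the difference was -12.1 to -10.8 points, and 22 to 25 replicating nuclei lay in unnamed clusters. The seed-coat-like share was higher in each of the 5 clusterings, by 6.48 to 16.1 points, and passed only at a resolution of 0.5 (adjusted p = 0.0195, against 0.107). GFP transcripts of the marker were detected in 17.2% of replicating nuclei and 13.4% of the others, among them 2 of the 19 seed-coat-like and 7 of the 31 embryo-proper-like replicating nuclei.

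**Figure D5:**
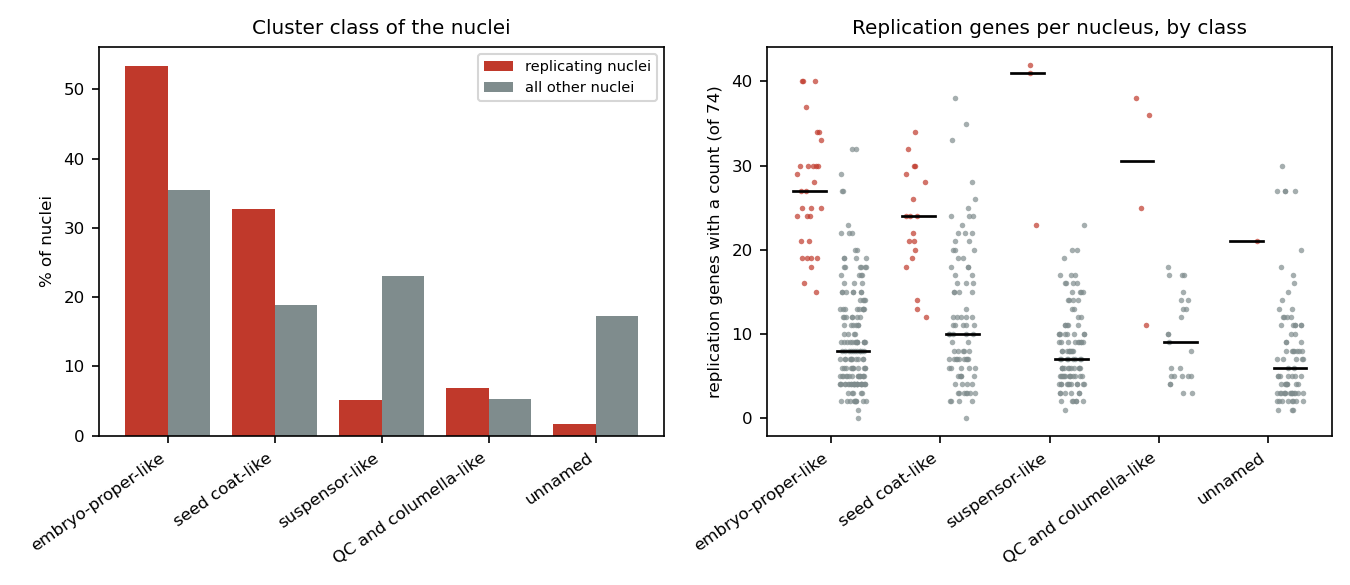
Left, percentage of replicating nuclei and of all other nuclei in each cluster class. Right, replication genes (of 74) with a count per nucleus after thinning, by class, with replicating nuclei left of the others and a line at the median, which is 27 against 8 in embryo-proper-like and 24 against 10 in seed-coat-like nuclei.

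Replicating nuclei of the embryo-proper-like and seed-coat-like classes had close medians of replication genes. The median number of replication genes was 27 in embryo-proper-like and 24 in seed-coat-like replicating nuclei, against 8 and 10 in the other nuclei of these classes. HMGB6 was detected in 87.1% and 89.5% of the replicating nuclei of the classes, and in 23.1% and 33.3% of their other nuclei. Histone genes differed more between the classes, with medians of 7 and 14 genes per replicating nucleus (4 and 6 in the others). The 3 suspensor-like replicating nuclei had 23 to 42 replication genes, against a median of 7 in the other suspensor-like nuclei, and had more features than most nuclei (median 6202). With so few, no test was made, and whether such wells held more than 1 nucleus was not tested.

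Within the embryo-proper-like class, 25 replicating nuclei were compared with 108 other nuclei on the 5 plates that had at least 3 of each. Of 9540 genes, 3 were higher (0.0314%) and 36 lower (0.377%), with a median log2 difference of -2.35. The higher genes were UBP21 (633 ± 391 CPM in replicating nuclei and 34.4 ± 34.98 CPM in the others, SD, n = 5 plates, edgeR adjusted p = 0.0486), AT5G63550 (1679 ± 609 and 337 ± 233 CPM, adjusted p = 0.0187) and ATXR6 (603 ± 505 and 38.0 ± 49.4 CPM, adjusted p = 0.0355). Each was higher on 5 of 5 plates, and no gene was called higher when any 1 of plates 1, 2, 4 or 8 was left out.

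Of the 23 genes higher against all nuclei, 21 were positive here and 16 were called by limma, which found 46 genes higher (0.482%) and 19 lower (0.199%). HTA10 had a log2 difference of -3.82 ± 1.90 in edgeR (adjusted p = 0.438) and -0.17 with limma. Pooled over plates it ran the other way, with 441.4 CPM in embryo-proper-like replicating nuclei and 145.5 CPM in the other embryo-proper-like nuclei. Of the genes for mitosis, 9 of those tested were lower, among them POK2 (9.73 ± 19.5 CPM in replicating nuclei and 608 ± 254 CPM in the others, edgeR adjusted p = 0.000103), TOPII, 3xHMG-box1 and 3xHMG-box2. When the 2 clusters led by mitotic genes were left out of the others, 0 genes were higher and 2 were lower (0.021%) in edgeR, with 280 genes at an unadjusted p under 0.05.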

How the data were processed

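The authors trimmed the reads with cutadapt 2.6, quantified transcripts with kallisto (its version is not given in the sources used here) against TAIR10 transcripts, and deposited 1 table of estimated counts per gene and nucleus for each plate, in whole numbers without normalization. Of 33668 features, 32222 are nuclear genes and entered the sums and library sizes. Members and gene lists were chosen with earlier results of these data known. Counts were summed by plate and class and tested with edgeR 4.0.16 in R 4.3.3 (genes with a count in at least 10% of retained nuclei, TMM, glmQLFit, glmQLFTest, two-sided, plate as block), with Benjamini-Hochberg adjustment over all genes and a threshold of 0.05. Standard errors are the log2 difference over the square root of F. CPM in the text are after TMM, while summed lists are relative to 1000000 nuclear counts. Clusters came from scanpy 1.11.5 (1000 variable genes, 15 components, 15 neighbours, resolution 1) and take the name of a marker class whose mean log2 difference was at least 0.5. Classes were compared with exact sign-flip tests over 8 plates, whose smallest p is 0.0078. Named genes are the rule genes, all list and marker genes, and the 15 largest differences in each direction among called genes with at least 20 CPM and the same direction on 7 of 8 plates. Results were recomputed with limma 3.58.1 on plate means of log2(CPM + 1), DESeq2 1.42.0, other filters, classes and limits, no plate block, and each plate left out. The tests were tried on simulated data. Smart-seq2 reads are not independent molecules, so intervals and floors (3 counts) cover counting error only. The plate number marks a shared plate, so it pairs the sums of the 2 classes. The tables of well barcodes were not used.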

Additional observations from a re-analysis of the deposited data

Results flagged for a closer look

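Single plates stood apart from the other 7 in 5 of 49 sets of plate values tested, and chance marks about 1 in 20. In replicating nuclei, plate 1 had 1298 CPM of BARD1 (next highest 575.6) and 1808 CPM of FAS1 (next highest 641.6). Both genes stayed called higher without plate 1 or any other plate, with log2 differences of 3.51 to 4.38 for BARD1 and 2.13 to 2.51 for FAS1. In the other nuclei, plate 1 had 572.3 CPM of POL2A (next highest 289.4), and plate 8 had 95.47 CPM of AT4G16807 (next highest 48.26) and 471 CPM of AT5G63550 (next highest 274).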

How the results depend on the processing

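Against all other nuclei, 23 genes were higher and 277 lower. DESeq2 gave 88 and 3309, limma 303 and 129, equal numbers of nuclei 14 and 24, and at least 4 rule genes (38 nuclei) 13 and 946. The number of lower genes was 1508 with no filter, 1342 with filterByExpr, 546 with the rule on thinned counts and 1647 without seed-coat-like nuclei. Leaving out seed-coat-like and suspensor-like nuclei, chosen after seeing the data, gave 5 and 1125, and AT3G06355 was then -0.16. Without each plate the counts were 12 to 22 and 117 to 491. The plate pairs the sums, and with no replicate block 23 genes were higher and 55 lower. Among embryo-proper-like nuclei (3 and 36), the fit with no block gave 0 and 28, limma 46 and 19, DESeq2 79 and 2211, the removal of the mitotic clusters, also chosen after seeing the data, 0 and 2, and leaving out plates 0 to 6 and 17 to 37.

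The embryo-proper-like share turned to -10.8, -12.1 and -11.2 points at resolutions 0.5 and 2 and with 30 components, and the unnamed share to 11.6, 12.1 and 20.8. The suspensor-like share no longer passed at resolution 2 (-17.01) and with 10 components (-15.1), and the seed-coat-like share passed at resolution 0.5 (15.9). Without each plate the differences were 18.5 to 24.8 (embryo-proper-like), 7.78 to 14.9 (seed-coat-like), -21.2 to -15.5 (suspensor-like) and -17.7 to -13.9 (unnamed), and with 7 plates the adjusted p was 0.0521 without any 1 of 6 plates (embryo-proper-like and unnamed) or 7 plates (suspensor-like). The cause of these shifts was not tested.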
